A study of Danio rerio with 8 samples.

Results

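Cells of the GFPhigh fraction (labelled mOC, read as mature osteoclasts, OCs) were compared with cells of the GFPlow fraction (labelled pOC, read as precursor OCs). Both were sorted from fractured scales of adult zebrafish at 1 day post-fracture. The paper proposes that GFPlow holds chiefly monocytes and macrophages brought by the fracture, and that GFPhigh may hold OCs of several stages. Gain, loss, rise and fall below compare GFPhigh with GFPlow and follow no cell over time. Genes were compared when they reached 1 RPM (reads of a gene scaled to the depth of its library) in both libraries of either fraction, which held for 12400 of the 32057 genes listed. Of these, 10300 reached that level in both fractions, 1374 in GFPlow only and 726 in GFPhigh only. The gene nearest below this limit stood at 0.99 RPM and the nearest above at 1.00 RPM, with 248 genes less than 0.1 RPM below and 296 less than 0.1 RPM above it.

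All fractions came from *trap:GFP*; *osterix:mCherry* double-transgenic fish that were otherwise wild type, and the control fraction of this comparison, GFPlow, thus carries both transgenes as well. The GFP is driven by the upstream region of *acp5a*, the gene of tartrate-resistant acid phosphatase (TRAP) of OCs, and the mCherry by that of medaka *osterix*, an osteoblast (OB) transcription factor. GFPlow cells were nucleated (Hoechst high), weak in GFP and positive for mCherry, whereas GFPhigh cells were nucleated and strong in GFP with no requirement for mCherry. The gates therefore differ in both colours, the GFPlow gate can hold OBs and phagocytes that carry fragments of the other cell, and *acp5* is not independent of the sort. The series also holds an mCh+ fraction (OBs, nucleated and negative for GFP) and an EV fraction (mCherry-positive particles without a nucleus), which entered the fit and are quoted where they bear on the comparison.

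OCs are multinucleated cells of the monocyte lineage that dissolve bone. Macrophage colony-stimulating factor keeps their precursors alive, and RANKL induces the transcription factor NFATc1, under which precursors fuse and switch on the genes of resorption. The mature cell seals off a patch of matrix with a ring of actin-rich podosomes, pumps protons into it through the vacuolar H+-ATPase (V-ATPase), and secretes cathepsin K, TRAP and matrix metalloproteinases, at a high cost in ATP. In zebrafish scales, OCs gather at the site of a fracture and remove damaged matrix.

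The 2 GFPlow libraries held 24435509 and 24344420 reads in genes, and the GFPhigh libraries 12946256 and 11814593, so that 3 reads were worth 0.123 RPM in GFPlow and 0.232 and 0.254 RPM in GFPhigh. Replicates differed by a median of 0.32 on the log2 scale in GFPlow and 0.34 in GFPhigh over the 12400 genes, and by 0.61 in EV. The defining OC markers *acp5*, *ctsk*, *mmp9*, *nfatc1*, *ocstamp* and *tcirg1* (ENSDARG00000105142) were detected in every library of both fractions and were higher in GFPhigh. Of the defining markers of neutrophils, lymphocytes and thrombocytes, *lyz*, *lck* and *itga2b* were listed at 0 in all libraries, but others were detected. The neutrophil marker *npsn* was at 2.74 and 0.58 RPM in GFPlow and 1.93 and 1.61 RPM in GFPhigh. The lymphocyte marker *zap70* was at 1.47 and 7.6 RPM against 5.95 and 3.72 RPM, and neither marker was called. The summed level of 9 endothelial genes compared was 60.9 and 50.1 RPM in GFPlow and 17.4 and 15.8 RPM in GFPhigh, with 2 lower genes (*tie1* and *mrc1*), and that of 9 mural and nerve genes 155 and 113 RPM against 54.3 and 54.2 RPM. Only 2 of these endothelial genes and 4 of these mural and nerve genes reached 1 RPM in both fractions. Both *tie1* and *mrc1* reached it in GFPlow only, where a difference was close to forced. The endothelial genes present in both fractions, *tek* and *fli1*, were not called (log2 fold changes of -0.19 and 0.01). The summed level of 10 neutrophil genes was 267 and 219 RPM against 151 and 156 RPM, with 1 lower gene, *ncf1*, which macrophages share. Keratinocyte markers were present in both fractions, with *krt4* at 870 and 747 RPM in GFPlow and 713 and 400 RPM in GFPhigh, as was the pteridine gene *gch2* of xanthophores, at 326 and 309 RPM against 596 and 406 RPM. Neither gene differed past the test.

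In all, 106 genes were higher in GFPhigh and 513 were lower, with an adjusted p under 0.05 in limma and a log2 fold change of RPM + 1 beyond 1. These are 0.757% and 3.66% of the 14006 genes tested, and 0.855% and 4.14% of the 12400 genes compared. All of them are among the latter, 8 of the higher ones through GFPhigh only and 86 of the lower ones through GFPlow only, where a difference was close to forced. Among the 10300 genes present in both fractions the shares were 0.951% and 4.15%. The gains were smaller than the losses, with a median log2 fold change of 1.69 for the higher genes and of -2.36 for the lower genes, and a change beyond 3 in 8 of the former and 120 of the latter. In each of the 619 called genes both libraries of 1 fraction lay beyond both of the other. The higher genes together took 29568 and 25365 RPM in GFPlow and 92102 and 82334 RPM in GFPhigh. The lower genes took 105731 and 99159 RPM in GFPlow and 23470 and 21473 RPM in GFPhigh.

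The counts rest on both GFPlow libraries. Leaving out a library leaves its fraction with 1, which is assumed to vary like the other fractions, EV with its wider spread included. Without GFPlow replicate 1, limma called no gene in either direction, although 423 higher and 1129 lower genes kept an unadjusted p under 0.05, and without GFPlow replicate 2 it called 0 and 5 (368 and 1086 unadjusted). The fold changes moved less, for example from 3.11 to 3.19 and 3.03 for *acp5* and from 3.70 to 3.68 and 3.72 for *mcoln3*. Without GFPhigh replicate 1 the counts were 5 and 99, and without replicate 2 they were 3 and 55. Without an EV library they rose to 362 and 1201 (replicate 1) or 365 and 1180 (replicate 2), and a fit of the 4 libraries of the pair alone gave 375 and 1167, which included all 106 and all 513 genes. The median log2 fold change of all tested genes was -0.15, and -0.03 after TMM scaling or 0.06 after quantile normalization, so a value near 0 has no fixed direction.

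**Figure D1:**
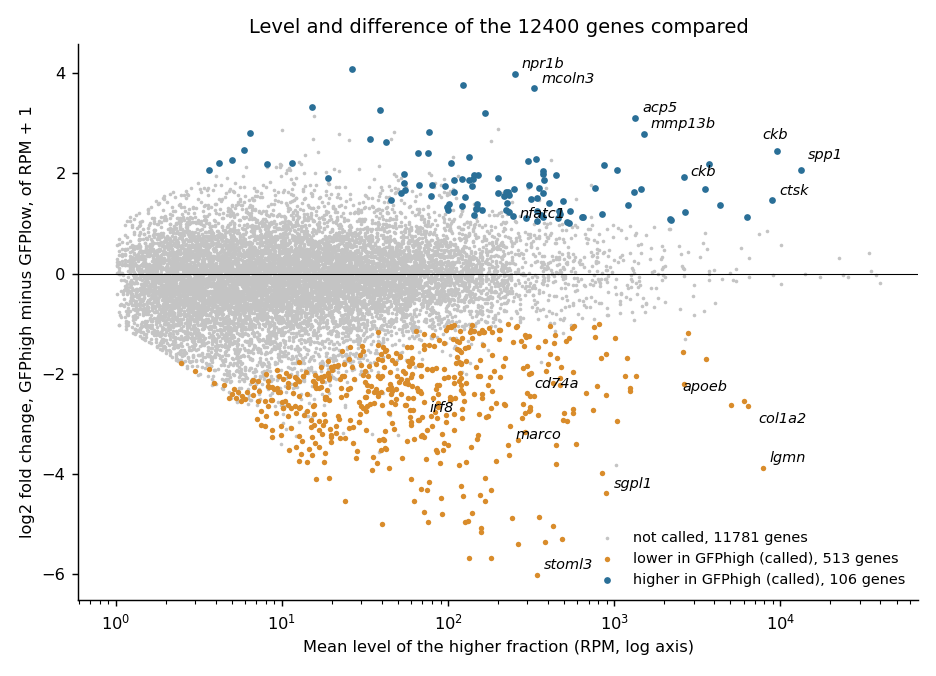
Each point is 1 of the 12400 genes, with the mean level of its higher fraction in RPM (log axis) against the log2 fold change of GFPhigh over GFPlow on the RPM + 1 scale, and colours mark the 106 higher and 513 lower genes. The lower genes reach -6.01 and the higher genes 4.08, and the slanting lower edge at low levels is the limit set by the pseudocount of 1 RPM.

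Several genes of matrix resorption were higher in GFPhigh. Of 23 resorption genes compared, 7 were higher in GFPhigh and 1 was lower, and the median log2 fold change of the 22 present in both fractions was 0.85, against -0.10 over all such genes. *acp5*, which encodes TRAP and drives the GFP reporter, was at 161 and 144 RPM in GFPlow and at 1132 and 1538 RPM in GFPhigh, a log2 fold change of 3.11 (SE 0.24, adjusted p = 0.00182). *mmp13b*, a collagenase gene, went from 210 and 211 RPM to 1838 and 1166 RPM (2.79, SE 0.26, adjusted p = 0.00288). Both fractions were far apart in these genes, while mCh+ cells held 12.5 RPM of *acp5* and 372 RPM of *mmp13b*. *mmp9*, a gelatinase gene typical of OCs, was at 926 and 673 RPM in GFPlow and 4818 and 2644 RPM in GFPhigh (2.18, SE 0.38, adjusted p = 0.0244). *ctsk*, the collagen-degrading protease cathepsin K, was already high in GFPlow at 2949 and 3522 RPM and reached 8408 and 9433 RPM in GFPhigh (1.47, SE 0.17, adjusted p = 0.00656). In addition, 2 genes picked after their values were seen belong here. *spp1* (osteopontin, a matrix phosphoprotein that integrins bind) rose from 4486 and 2119 RPM to 15928 and 10503 RPM (2.07, SE 0.44, adjusted p = 0.0482), and *snx10b*, whose human counterpart is mutated in osteopetrosis, from 34.6 and 29.9 RPM to 116 and 126 RPM (1.88, SE 0.28, adjusted p = 0.0142). The paralog listed as *snx10* was at 8.84 and 8.5 RPM against 1.39 and 3.81 RPM. That gene was not called by limma (-1.51, adjusted p = 0.304). The lower gene of the list was *rab38*, a Rab GTPase of lysosome-related organelles, at 7.33 and 7.11 RPM in GFPlow and 0.70 and 0.17 RPM in GFPhigh (-2.54). It reached 1 RPM in GFPlow only, where a difference was close to forced. Carbonic anhydrase *ca2*, which supplies the protons, had 141 and 110 RPM against 397 and 309 RPM and the chloride channel gene *clcn7* 143 and 91.4 RPM against 270 and 170 RPM, but neither passed the test (adjusted p = 0.129 and 0.524). Their SE values of 0.44 and 0.58 include the spread of EV, at 78.7 and 29.5 RPM for *ca2* and 113 and 31.2 RPM for *clcn7*.

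Some subunits of the V-ATPase were higher in GFPhigh. Of 21 subunit genes, 4 were higher and none was lower (13 and 0 at an unadjusted p under 0.05 in limma), 19 had a positive fold change, and their median was 0.90, whereas 17 were not called one by one. Among these, *atp6ap2*, *atp6v1h* and *atp6v1c1* (ENSDARG00000023967) had adjusted p values under 0.05 in limma (0.038, 0.0477 and 0.0459). Their log2 fold changes of 0.90, 0.93 and 0.98 missed the limit of 1. The summed level of the 21 genes was 10760 and 9222 RPM in GFPlow and 21053 and 21503 RPM in GFPhigh, with 2610 RPM in mCh+ cells. The a3 subunit gene *tcirg1* (ENSDARG00000105142), which carries the pump to the ruffled border and whose human counterpart is mutated in osteopetrosis, was at 1465 and 1838 RPM in GFPlow and 3692 and 4975 RPM in GFPhigh (1.38, SE 0.20, adjusted p = 0.0135). The other called subunits were *atp6v1b2* (ENSDARG00000013443) of the catalytic head (1.37), the proteolipid *atp6v0c* (ENSDARG00000057853) of the membrane ring (1.13) and the accessory subunit *atp6ap1b* (1.09). A second gene listed as *tcirg1* was at most 26.6 RPM and had a log2 fold change of 0.54 (adjusted p = 0.711). The lysosomal cation channel *mcoln3* (ENSDARG00000102050) had one of the largest gains of all genes, from 23.9 and 24.6 RPM to 372 and 287 RPM (3.70, SE 0.29, adjusted p = 0.0019). Its paralog *mcoln3a* was at 8.55 and 8.67 RPM against 1.16 and 1.18 RPM. That gene was not called by limma (-2.15, adjusted p = 0.0575).

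Some genes of energy supply were higher as well. Both genes listed as *ckb*, which encode brain-type creatine kinase, a buffer of ATP at sites of high use, passed the test. ENSDARG00000069752 was at 1694 and 1810 RPM in GFPlow and 9220 and 9827 RPM in GFPhigh (2.44, SE 0.19, adjusted p = 0.0019), and ENSDARG00000043257 at 1139 and 1030 RPM against 3271 and 3723 RPM (1.69, SE 0.29, adjusted p = 0.023). Of 81 subunit and assembly genes of the respiratory chain and ATP synthase, 3 were higher and none was lower (26 and 1 at an unadjusted p under 0.05 in limma). Most did not pass the test, 66 of the 72 present in both fractions had a positive fold change, the median was 0.62, and the summed level of the list was 15458 and 14287 RPM in GFPlow and 26680 and 26324 RPM in GFPhigh. The called genes were *uqcrc1* and *cyc1* of complex III (1.27 and 1.03) and *sdha* of complex II (1.08). *oxct1a*, the enzyme that activates ketone bodies for oxidation, was at 72.1 and 65.9 RPM in GFPlow and 339 and 336 RPM in GFPhigh (2.28, SE 0.26, adjusted p = 0.00658), and *ogdha* of the citric acid cycle was also higher (1.32).

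Several other genes linked to mitochondria or their shuttles were noticed among the 106 after their values were seen. The transhydrogenase *nnt*, which makes mitochondrial NADPH, stood at 239 and 260 RPM against 1000 and 1088 RPM (2.06, SE 0.17, adjusted p = 0.0019). *cpt1b* and *acadvl* of fatty acid oxidation (1.77 and 1.19), the aspartate shuttle genes *got1*, *got2b* and *slc25a12* (1.69, 1.25 and 1.17), *pdhx* of pyruvate dehydrogenase (1.28), *sucla2* (1.01), *immt* of the cristae (1.26), and *lrpprc* and *cluh*, whose products bind mRNAs of mitochondrial proteins (1.50 and 1.64), moved the same way. Of 30 glycolysis genes 1 was higher, *eno1* (ENSDARG00000013750, 1.2), and 1 was lower, the sugar transporter *slc2a6*, which fell from 129 and 110 RPM to 7.57 and 3.72 RPM (-4.24, SE 0.36, adjusted p = 0.00236). Of all genes compared, 0.855% were higher and 4.14% lower, so 1 gene in each direction does not set this list apart. The lactate dehydrogenase gene *ldha* had 714 and 810 RPM against 1118 and 1604 RPM and did not pass the test (0.82, adjusted p = 0.0811).

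**Figure D2:**
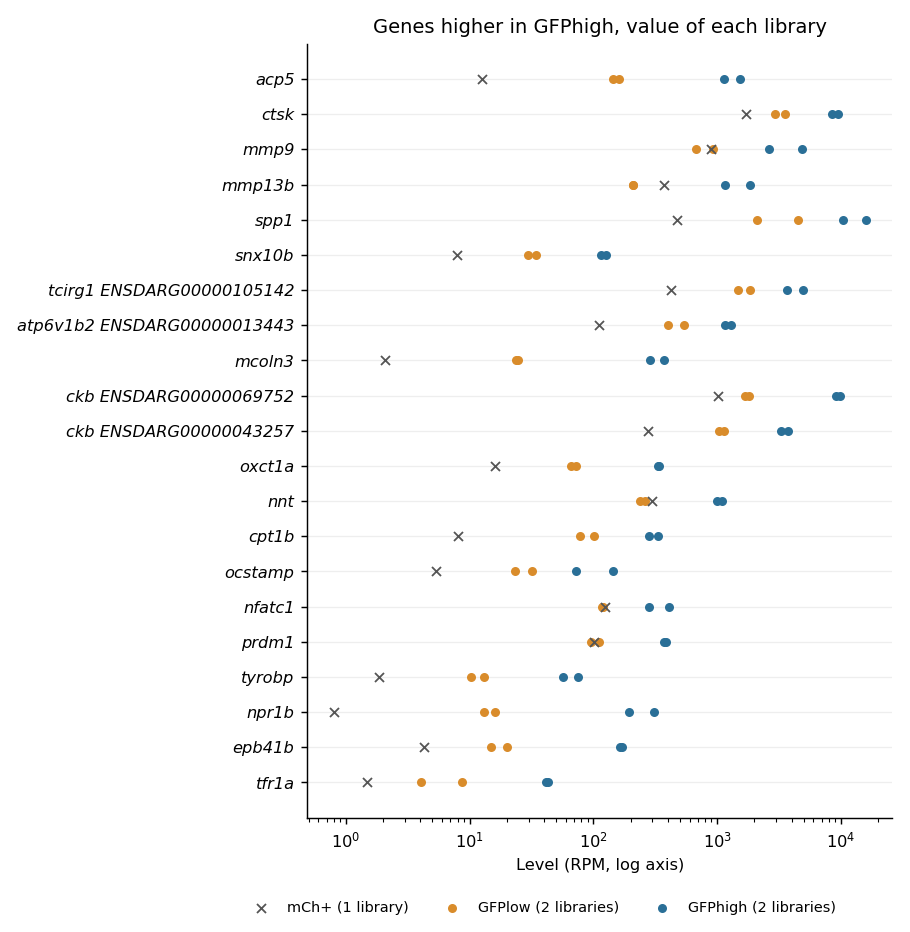
Level in RPM (log axis) of 21 genes higher in GFPhigh, 1 point per library (2 GFPlow, 2 GFPhigh) with the single mCh+ value as a cross. As in all 106 higher genes, both GFPhigh points lie to the right of both GFPlow points in every gene. The GFPhigh points run from 41.2 RPM for *tfr1a* to 15928 RPM for *spp1*.

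Some regulators and surface molecules of OC differentiation were higher in GFPhigh, some were lower, and most were not called. Of 41 signalling and transcription factor genes, 3 were higher and 8 were lower, beside 0.855% and 4.14% of all genes compared. The median of this list, -0.06, turned positive under TMM scaling (0.08) and quantile normalization (0.12). *nfatc1*, the master regulator of OC differentiation, was at 118 and 119 RPM in GFPlow and 406 and 284 RPM in GFPhigh (1.51, SE 0.32, adjusted p = 0.0465). *prdm1* encodes Blimp1, which in mouse OCs represses *Irf8*, and went from 111 and 95.7 RPM to 370 and 387 RPM (1.86, SE 0.21, adjusted p = 0.00577). *tyrobp* encodes the DAP12 adaptor, which costimulates calcium signalling in OC precursors of mammals, and went from 10.3 and 13 RPM to 57.2 and 75.2 RPM (2.40, SE 0.51, adjusted p = 0.0477). Another adaptor gene of this kind, *fcer1g*, which reached 1 RPM in GFPlow only, was lower, at 9.41 and 9.08 RPM against 0.54 and 0.42 RPM (-2.79, SE 0.46, adjusted p = 0.0197). The more abundant *fcer1gl* was at 77.7 and 62.6 RPM against 85.3 and 98.8 RPM and was not called by limma (0.39, adjusted p = 0.586). Of the fusion, attachment and podosome genes, 3 of 39 were higher and 3 were lower, beside 0.855% and 4.14% of all genes compared. Their median was 0.03. The fusion gene *ocstamp* was at 23.3 and 32.0 RPM in GFPlow and 72.7 and 143 RPM in GFPhigh (1.86, SE 0.38, adjusted p = 0.0441). The Arp2/3 subunit *arpc5* (ENSDARG00000019062) and the podosome protein paxillin, *pxn*, were the other gains (1.62 and 1.12). The tetraspanins *cd9b* and *cd81* (ENSDARG00000022437) and the sheddase *adam8a*, all linked to cell fusion in mammals, were lower in GFPhigh (-2.45, -2.12 and -2.79). Of these, *cd81* reached 1 RPM in GFPlow only, where a difference was close to forced.

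The receptors through which OC precursors are instructed did not differ past the test. The RANK gene *tnfrsf11a* was at 44.7 and 28.6 RPM in GFPlow and 69.2 and 47.6 RPM in GFPhigh (0.67, adjusted p = 0.407), so both GFPhigh values lay above both GFPlow values without passing it. The receptor gene *csf1ra* of macrophage colony-stimulating factor was at 176 and 197 RPM against 173 and 201 RPM (0.00, SE 0.21, adjusted p = 0.996). The same holds for *spi1* (PU.1), at 593 and 554 RPM against 713 and 779 RPM (0.38, adjusted p = 0.432), for the kinase gene *csk* (0.61, adjusted p = 0.271) and for the integrin gene *itgb3* (ENSDARG00000045070), at 11.2 and 14.3 RPM against 42.8 and 27.2 RPM (1.36, adjusted p = 0.172).

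Outside these groups, the natriuretic peptide receptor gene *npr1b*, a guanylyl cyclase, had the largest gain among symbol-bearing genes at 50 RPM or more, from 13.1 and 15.9 RPM to 307 and 195 RPM (3.99, SE 0.49, adjusted p = 0.00828). Its paralog *npr1a* was at 12.8 and 15.6 RPM against 4.09 and 3.81 RPM. That gene was not called by limma (-1.61, adjusted p = 0.369). *epb41b*, a protein of the membrane skeleton known from erythrocytes, was at 14.8 and 19.9 RPM against 163 and 170 RPM (3.21, SE 0.66, adjusted p = 0.0441), while the other erythroid markers were at or near 0. The sodium pump subunit *atp1a3a* (2.82), the lipid-binding protein gene *bpifcl* (2.41), *swap70* (ENSDARG00000051819), which links Rac signals to actin (2.33), *ica1l* (2.25), and the transferrin receptor *tfr1a* (2.63) followed. *bpifcl* differed between its GFPlow libraries, at 20.8 and 8.46 RPM, and its fold change was 3.01 without GFPlow replicate 1 and 1.81 without replicate 2. Noticed after their values were seen were *phex*, a peptidase gene of phosphate handling (803 and 582 RPM against 3149 and 2139 RPM, 1.92), the leukocyte integrin *itgb2* (1.72), *mfge8a*, which bridges apoptotic cells and phagocytes (1.99), and the sugar phosphate transporter *slc37a2* (1.23).

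Many monocyte and macrophage genes were lower in GFPhigh. Of 39 compared, 19 were lower and none was higher (28 and 0 at an unadjusted p under 0.05 in limma), with a median of -2.08 over the 27 present in both fractions, and 12 reached 1 RPM in GFPlow only. Their summed level was 25421 and 19282 RPM in GFPlow and 7534 and 6701 RPM in GFPhigh, and it was 4931 RPM in mCh+ cells and 25005 and 26575 RPM in EV. In bulk libraries such as these, fewer cells of a type and less RNA per cell cannot be told apart. *cmklr1* (ENSDARG00000090890), the chemerin receptor of macrophages, was at 160 and 202 RPM in GFPlow and 2.24 and 2.88 RPM in GFPhigh (-5.67, SE 0.31, adjusted p = 0.00069). The scavenger receptor *marco* was at 251 and 210 RPM against 21.0 and 20.3 RPM (-3.41, SE 0.40, adjusted p = 0.00742), and the macrophage perforin *mpeg1* (ENSDARG00000043093) at 55.5 and 117 RPM against 19.2 and 14 RPM (-2.23, SE 0.39, adjusted p = 0.0244). The last gene was highest in mCh+ cells, at 167 RPM. Another gene listed as *mpeg1* (ENSDARG00000055290) was at 1.94 RPM in mCh+ cells. It was at 17.4 and 15.9 RPM in GFPlow and 1.47 and 1.18 RPM in GFPhigh (-2.93, SE 0.43, adjusted p = 0.0148). The interleukin 10 receptor gene *il10ra* (-3.33), heme oxygenase *hmox1* (-3.22) and 2 *mfap4* genes (-3.08 and -2.82) were lower as well. The first of these *mfap4* genes (ENSDARG00000090783) reached 1 RPM in GFPlow only, where a difference was close to forced. A further gene listed as *mfap4* (ENSDARG00000090557) was not called by limma (-2.13, adjusted p = 0.0966). Pan-myeloid genes such as *cd68* (860 and 776 RPM against 594 and 805 RPM, adjusted p = 0.637) and *ptprc* (118 RPM in both GFPlow libraries against 89.5 and 54.9 RPM, adjusted p = 0.254) did not pass the test. The complement genes *c1qa*, *c1qb* and *c1qc* had at most 8.75 RPM in GFPlow and were not called.

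The phagocyte oxidase, which makes superoxide in macrophages and neutrophils, was lower in its subunit genes *cybb*, *cyba*, *ncf1* and *ncf4*. *cybb*, its catalytic subunit, fell from 105 and 85.2 RPM to 8.34 and 8.13 RPM (-3.37, SE 0.27, adjusted p = 0.0019), and its partner *cyba* from 107 and 86.1 RPM to 11.8 and 13.6 RPM (-2.83, SE 0.35, adjusted p = 0.00868). The cytosolic activators *ncf4* and *ncf1* followed with -3.21 and -1.91. *gpnmb*, a glycoprotein of phagosomes, was at 157 and 159 RPM in GFPlow and 9.5 and 1.1 RPM in GFPhigh (-5.08, SE 0.68, adjusted p = 0.0111), and was higher still in EV, at 406 and 640 RPM. Its fold change was -6.24 without GFPhigh replicate 1 and -3.92 without replicate 2. The cholesterol exporter *abca1b* (-2.60) and *pparg*, a nuclear receptor of lipid uptake (14.6 and 11.8 RPM against 0.31 and 0.51 RPM, -3.33), were lower as well. Of these, *pparg* reached 1 RPM in GFPlow only, where a difference was close to forced. In the same list of 27 genes, with 8 lower in all, 2 were higher, *itgb2* and *mfge8a*.

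Among the lysosomal proteases, cathepsin K was higher and several others were lower. Legumain, an asparaginyl endopeptidase (*lgmn*), dropped from 8549 and 7069 RPM to 599 and 468 RPM (-3.87, SE 0.18, adjusted p = 0.000518). Both *ctss2* genes, cathepsins S that trim the invariant chain in antigen-presenting cells, were lower: *ctss2.1* was at 847 and 650 RPM against 82.9 and 150 RPM (-2.72, SE 0.30, adjusted p = 0.00607) and *ctss2.2* at 312 and 310 RPM against 45.2 and 51.2 RPM (-2.67, SE 0.27, adjusted p = 0.00395). The abundant protease genes *ctsla* (4543 and 4395 RPM against 3762 and 4643 RPM, -0.10, adjusted p = 0.872) and *ctsb* (4099 and 1269 RPM against 1685 and 504 RPM, -1.31, adjusted p = 0.442) were not called. The cathepsin L gene *ctsl.1* had 76.9 and 74.3 RPM against 1.39 and 1.52 RPM (-4.96). Across 55 lysosomal genes 14 were lower and 2 were higher (*ctsk* and *mcoln3*), with a median of -0.54. Lipid-handling members noticed afterwards were *npc2* (ENSDARG00000096979, 66.6 and 70.8 RPM against 6.49 and 6.35 RPM, -3.23), *lipa* (-2.06), *psap* (-1.29) and both *asah1* genes (-2.64 and -1.68), whereas the membrane protein *lamp2* was at 504 and 505 RPM against 771 and 807 RPM and was not called (0.64, adjusted p = 0.0811). The other, more abundant gene listed as *npc2* (ENSDARG00000090912) was at 206 and 176 RPM against 94.7 and 117 RPM. It was not called by limma (-0.85, adjusted p = 0.156). The invariant chain gene *cd74a* went from 318 and 280 RPM to 49.2 and 64.8 RPM (-2.38, SE 0.41, adjusted p = 0.023). With both *ctss2* genes it made up the 3 lower genes among 18 of antigen presentation, beside 4.14% of all genes compared.

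Some transcription factors of the monocyte lineage were lower in GFPhigh and others were not called. *spi1a*, a fish paralog of PU.1, fell from 140 and 107 RPM to 5.33 and 4.06 RPM (-4.44, SE 0.31, adjusted p = 0.00124), in contrast to *spi1*, which did not differ past the test. *irf8*, which directs monocytes to macrophages and restrains OC formation in mice, was at 75.7 and 63.8 RPM against 7.65 and 9.73 RPM (-2.87, SE 0.34, adjusted p = 0.0073). Both *spi1a* and *irf8* were low in both GFPhigh libraries. *tfec* of the MiT family (-4.10) and *cebpa*, a myeloid factor (455 and 488 RPM against 111 RPM in both, -2.08, SE 0.17, adjusted p = 0.0019), were lower as well, while *cebpb* was not called (-0.27, adjusted p = 0.535).

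Of 26 inflammatory cytokine and chemokine genes, 7 were lower and 1, *mmp9*, which the list shares with the resorption genes, was higher. The chemokine *ccl35.1* was at 159 and 119 RPM in GFPlow and 2.16 and 7.03 RPM in GFPhigh (-4.78, SE 0.68, adjusted p = 0.0132), with -4.11 without GFPhigh replicate 1 and -5.46 without replicate 2. *acod1*, the itaconate-producing enzyme of activated macrophages, fell from 59.3 and 65.7 RPM to 2.32 and 1.27 RPM (-4.53, SE 0.42, adjusted p = 0.00292). The neutrophil-attracting chemokine *cxcl18b* (-2.51), *ccl34a.4* (-3.04) and, noticed afterwards, *cxcl19* (-3.60), *il1b* (130 and 108 RPM against 26.0 and 23.4 RPM, -2.22) and *il34*, a second ligand of the macrophage colony-stimulating factor receptor (-1.49), completed the lower genes. Of these, *ccl34a.4* and *cxcl19* reached 1 RPM in GFPlow only, where a difference was close to forced. Both *cxcl18b* and *il34* were highest in mCh+ cells, at 327 and 340 RPM. In GFPlow they were at 90.6 and 117 RPM and at 117 and 138 RPM. Of 31 receptor genes, 4 were lower and 1 was higher, beside 4.14% and 0.855% of all genes compared. Among the lower ones was *cxcr4* (ENSDARG00000041959, 60.0 and 58.5 RPM against 5.25 and 12.2 RPM, -2.73, SE 0.50, adjusted p = 0.0308). The higher one was the TGF-β receptor *tgfbr1* (ENSDARG00000017494, 45.3 and 36.1 RPM against 135 and 143 RPM, 1.76, SE 0.30, adjusted p = 0.0225). The other gene listed as *cxcr4* (ENSDARG00000057633) was at 31.2 and 23.5 RPM against 45.0 and 32.5 RPM. It was not called by limma (0.48, adjusted p = 0.769).

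**Figure D3:**
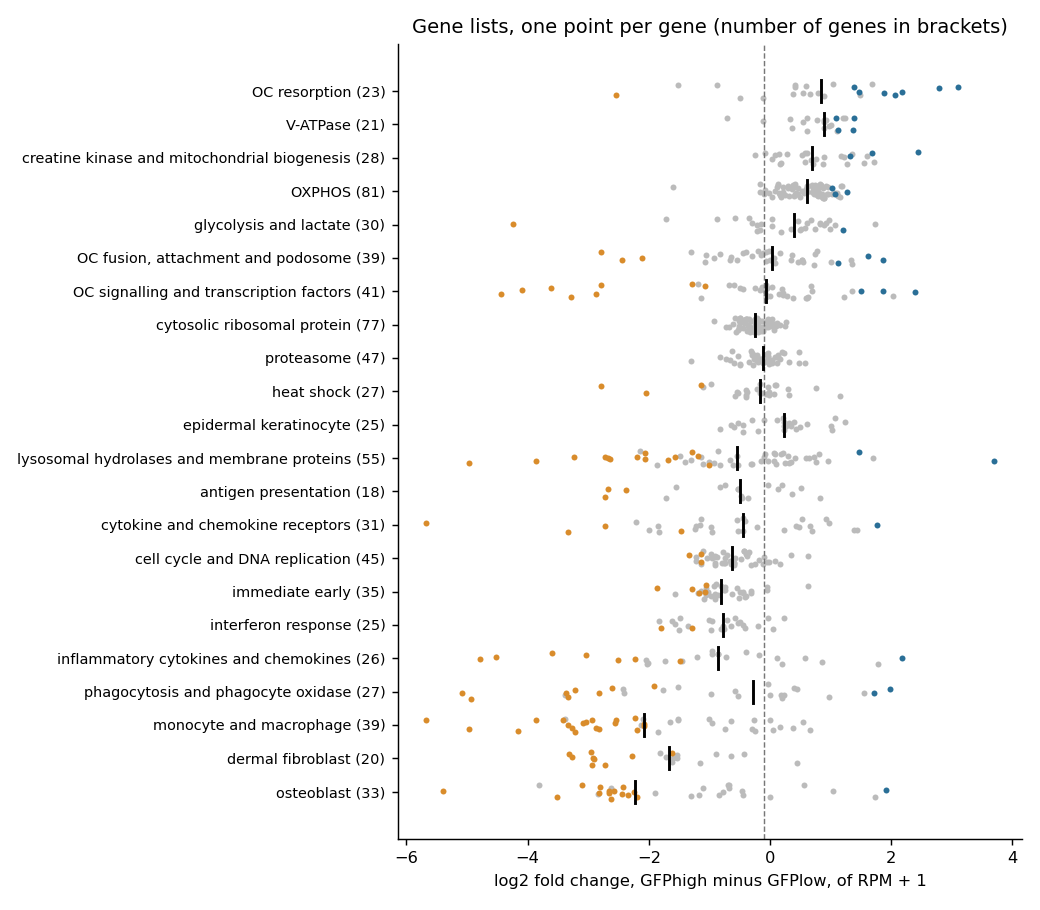
Each point is 1 gene of a list, placed at its log2 fold change of GFPhigh over GFPlow (RPM + 1), blue where higher, orange where lower and grey where not called, and the black bar is the median of the genes present in both fractions. Resorption, V-ATPase and mitochondrial lists lie to the right of the median of all genes (dashed, -0.10), and macrophage, fibroblast and OB lists to the left, at -2.08, -1.66 and -2.22.

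The genes with the largest losses at 50 RPM or more were of mixed kinds. *stoml3*, a stomatin-like membrane protein, was at 389 and 295 RPM in GFPlow and 6.18 and 2.88 RPM in GFPhigh (-6.01, SE 0.39, adjusted p = 0.00118). The galectin *lgals9l1* (-5.68), guanine deaminase *gda* (545 and 428 RPM against 11.3 RPM in both, -5.29), the amino acid transporter *slc43a2* (ENSDARG00000061120, -5.15), the olfactomedins *olmf4l1* and *olfm4l2* (-5.35 and -5.04) and the connexin *gja13.2* (-4.96) stood beside the macrophage genes given above. For *gja13.2* the value was -4.36 without GFPhigh replicate 1 and -5.55 without replicate 2. Only in GFPlow did *lgals9l1* reach 1 RPM in both libraries, so its difference was close to forced. Further genes noticed after their values were seen were *sgpl1*, which degrades sphingosine 1-phosphate (1034 and 757 RPM against 43.3 and 40.0 RPM, -4.38, SE 0.21, adjusted p = 0.000547), the proteoglycan *vcanb* (899 and 797 RPM against 51.3 and 54.8 RPM, -3.97, SE 0.17, adjusted p = 0.00037), lipoprotein lipase *lpl* (-4.41), apolipoprotein *apoeb* (7488 and 4579 RPM against 989 and 1005 RPM, -2.55, SE 0.23, adjusted p = 0.0027) and the solute carrier genes *slc7a11*, *slc3a2a* and *slc43a3* (-2.88, -3.45 and -4.85).

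**Figure D4:**
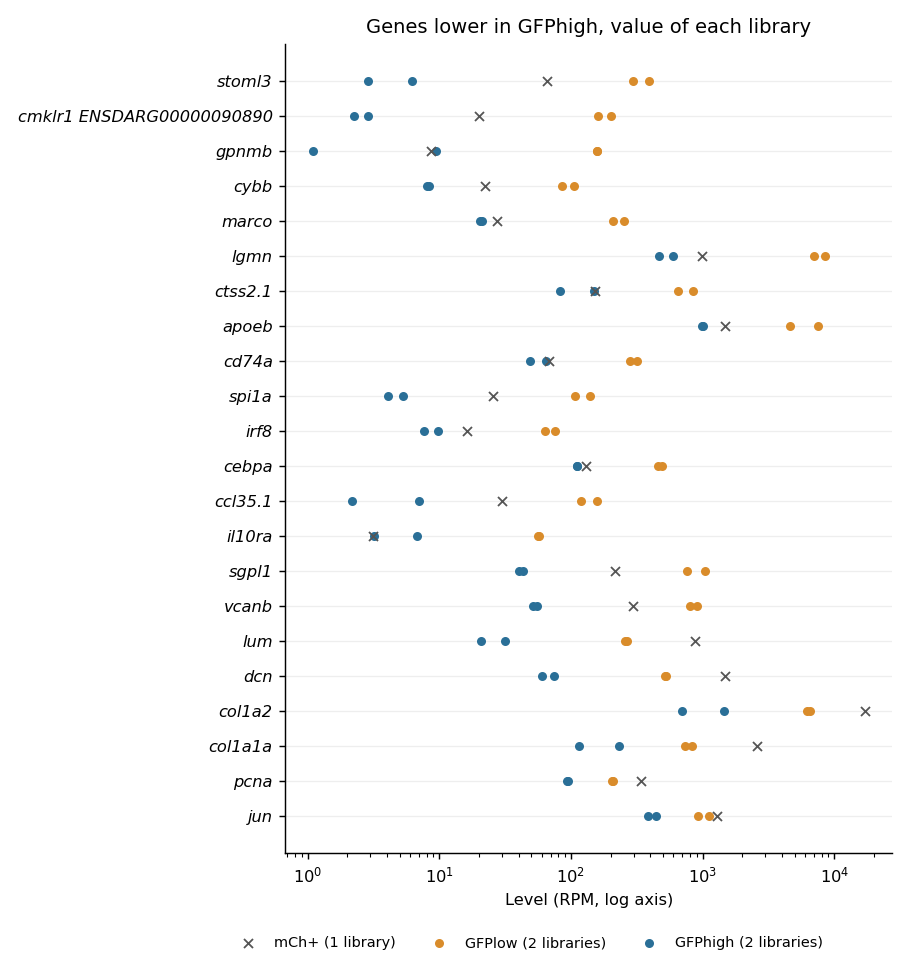
Level in RPM (log axis) of 22 genes lower in GFPhigh, 1 point per library (2 GFPlow, 2 GFPhigh) with the single mCh+ value as a cross. Macrophage genes such as *lgmn* (984 RPM in mCh+) have their mCh+ value below GFPlow, whereas *lum*, *dcn*, *col1a2* and *col1a1a* have it above.

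Part of the genes of OBs and dermal fibroblasts were also lower in GFPhigh. Of 33 OB genes, 14 were lower and 1, *phex*, was higher, and 13 of the 14 (all but *enpp1*) had their highest level in mCh+ cells. Of 20 fibroblast genes, 9 were lower and none was higher (16 and 0 at an unadjusted p under 0.05 in limma), and all 9 were highest in mCh+ cells. *col1a2*, a chain of type I collagen, was at 17068 RPM in mCh+ cells, 6182 and 6537 RPM in GFPlow and 1455 and 700 RPM in GFPhigh (-2.65, SE 0.34, adjusted p = 0.00923). *col1a1a* was at 2594 RPM, 732 and 835 RPM, and 231 and 116 RPM (-2.25, SE 0.34, adjusted p = 0.0155). The levels were thus graded from mCh+ over GFPlow to GFPhigh. The same order was seen in *sparc*, a calcium-binding matrix protein (2735 RPM, 1274 and 1224 RPM, 270 and 221 RPM, -2.35), in the small proteoglycans *dcn* (1480 RPM, 519 and 526 RPM, 74.5 and 60.6 RPM, -2.94) and *lum* (869 RPM, 258 and 267 RPM, 31.7 and 20.6 RPM, -3.31), and in the collagen chaperone *serpinh1* (ENSDARG00000019949, -2.79). *col10a1* (ENSDARG00000054753), at 427 RPM in mCh+ cells, was at 273 and 255 RPM against 10.3 and 2.54 RPM (-5.39, SE 0.50, adjusted p = 0.00292), with -6.22 without GFPhigh replicate 1 and -4.55 without replicate 2.

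The summed level of the OB list was 44669 RPM in mCh+ cells, 17786 and 18310 RPM in GFPlow and 7597 and 4529 RPM in GFPhigh, and that of the fibroblast list 6672 RPM, 2243 and 2601 RPM, and 853 and 662 RPM. The OB transcription factor *sp7* was at 5.42 RPM in mCh+ cells and at most 2.09 RPM in the other fractions, *bglap* was listed at 0 in every library, and *alpl*, *runx2b*, *wnt10b* and *tgfb1a* were not called. Of the ligands by which OBs act on OCs, *csf1a* (macrophage colony-stimulating factor) was at 32.3 RPM in mCh+ cells, 7.57 and 14.9 RPM in GFPlow and 1.47 and 2.2 RPM in GFPhigh (-2.05, adjusted p = 0.0864), and *tnfsf11* (RANKL) at 13.9 RPM, 8.88 and 9.20 RPM, and 3.48 and 6.43 RPM (-0.80, adjusted p = 0.721), neither past the test. One of the *efnb2* genes (ENSDARG00000074050), an ephrin ligand, was lower, at 3.60 and 4.23 RPM against 0.00 and 0.17 RPM (-2.18, adjusted p = 0.0363). This gene reached 1 RPM in GFPlow only, where a difference was close to forced. The other, more abundant gene listed as *efnb2* (ENSDARG00000020164) had a mean of 31.1 RPM in GFPlow and 21.3 RPM in GFPhigh. It was not called by limma (-0.52, adjusted p = 0.63). Over all 513 lower genes, 214 (41.7%) were highest in mCh+ cells, 190 (37.0%) in EV and 109 (21.2%) in GFPlow. A gene called lower cannot be highest in GFPhigh, and of the 9294 genes compared that were not highest there, 41.8%, 35.0% and 23.1% were highest in these fractions, shares close to those of the lower genes. The part of mCh+ cells, or of their fragments, in the GFPlow levels was not tested. The keratinocyte list had no called gene among 25 (1 higher and 1 lower at an unadjusted p under 0.05 in limma), a summed level of 17918 and 19749 RPM in GFPlow and 17069 and 20488 RPM in GFPhigh, and a median of 0.24. Several of its genes differed widely between the EV libraries, such as *cdh1* (402 and 30.5 RPM, SE 1.0) and *col17a1b* (856 and 41.6 RPM, SE 1.17). This fit could hardly call such genes, so the absence of calls does not set the list apart.

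**Figure D5:**
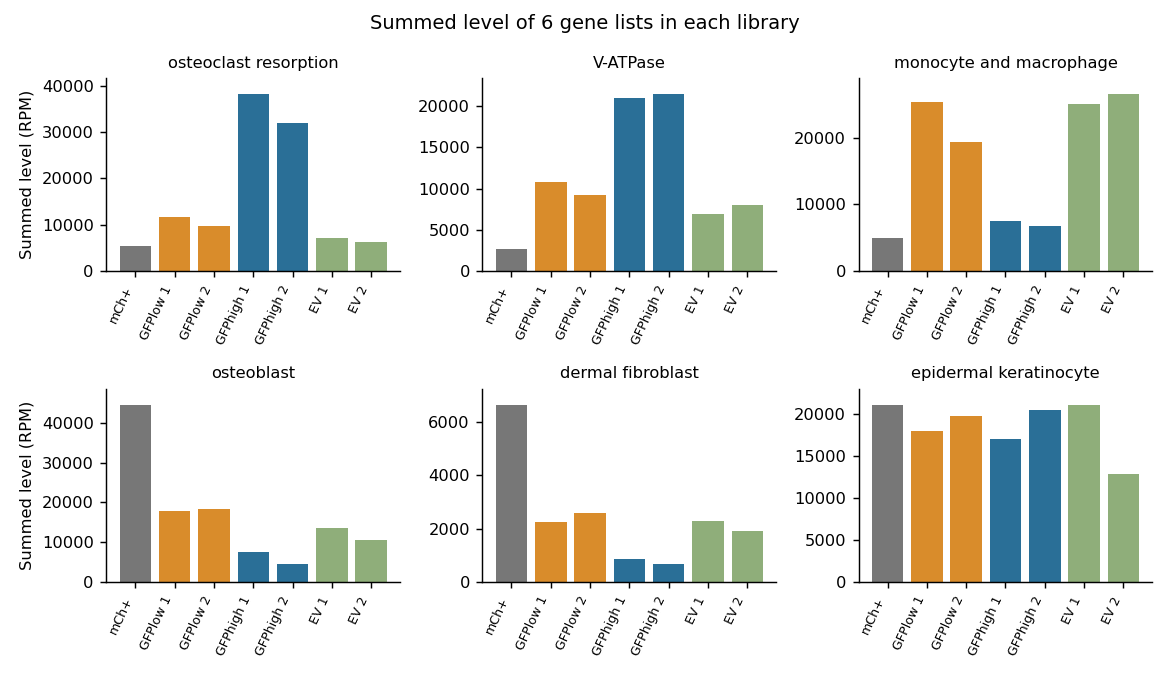
Bars give the summed RPM of the compared genes of 6 lists in each library (1 mCh+, 2 GFPlow, 2 GFPhigh, 2 EV), each panel with its own axis from 0. Resorption and V-ATPase sums are highest in both GFPhigh libraries (38281 and 32068 RPM, 21053 and 21503 RPM), the macrophage sum in GFPlow and EV, and the OB and fibroblast sums in mCh+ cells.

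Some immediate early genes and few cell cycle genes were called, all of them lower. Of 35 immediate early genes, which are induced within minutes of a stimulus, 5 were lower and none was higher (18 and 0 at an unadjusted p under 0.05 in limma), and 32 of the 33 present in both fractions had a negative fold change and their median was -0.80. These 5 are a larger share than the 4.14% lower among all genes compared. *jun* was at 1110 and 918 RPM in GFPlow and 442 and 384 RPM in GFPhigh (-1.29, SE 0.23, adjusted p = 0.0293), *junb* (ENSDARG00000074378) at 760 and 742 RPM against 360 RPM in both (-1.06), and the stress gene *gadd45b* (ENSDARG00000027744) at 535 and 417 RPM against 113 and 149 RPM (-1.86). Their levels in mCh+ cells were 1297, 956 and 243 RPM. Of 45 cell cycle genes, 3 were lower, all of DNA replication, a share near the 4.14% of all genes compared, and the median of the 38 present in both fractions was -0.62, or between -0.84 and -0.42 with 1 library left out. The replication clamp *pcna* was at 207 and 205 RPM against 92.8 and 94.5 RPM (-1.13, SE 0.19, adjusted p = 0.0224), beside 338 RPM in mCh+ cells, and the helicase subunits *mcm5* and *mcm4* followed (-1.33 and -1.13).

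Ribosomal protein and proteasome genes were not called, whereas some heat shock genes were lower. None of 77 cytosolic ribosomal protein genes and none of 47 proteasome genes was called by limma in this fit, with medians of -0.25 and -0.12, and the latter turned to 0.03 under TMM scaling. At an unadjusted p under 0.05, 3 genes of each group were lower and none was higher, and the fit of the 4 libraries of the pair called 1 lower proteasome gene. Of 27 heat shock genes 3 were lower, a larger share than the 4.14% of all genes compared. They were the collagen chaperone *serpinh1*, the small heat shock gene *hspb1* (1125 and 1186 RPM against 244 and 319 RPM, -2.05) and *hspa8* (ENSDARG00000037403, 144 and 174 RPM against 61.3 and 83.9 RPM, -1.13). The other, more abundant gene listed as *hspa8* (ENSDARG00000068992) was at 2417 and 2512 RPM against 2555 and 2688 RPM. It was not called by limma (0.09, adjusted p = 0.822). The median of the 27 genes was -0.16. The summed heat shock level was 125305 and 140610 RPM in GFPlow and 126933 and 136083 RPM in GFPhigh.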

How the data were processed

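RNA of sorted fractions was amplified by Quartz-Seq (oligo-dT priming, PCR, no molecular identifiers), prepared with Nextera XT and sequenced on a NextSeq500. Alignment by the authors was to GRCz11 (HISAT2 2.1.0), and the authors obtained RPM values with Subread 1.6.4. The deposited RPM table gives 2 decimals and was used without rescaling, and depths and limits set from 3 reads cover counting error only. Neither annotation release nor strand setting nor the handling of multi-mapping reads is given in the sources used here, so genes with a near-identical or antisense partner (*ckb*, *tcirg1*, *mfap4*, *mpeg1*, *ctss2* and others with a paralog) are uncertain.

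Groups followed the labels, with 2 replicates per fraction that the study calls biological. The labels name no animals, so p-values measure the spread between these libraries. Both mCh+ files listed equal values for all 32057 genes and counted as 1 library. Genes at 1 RPM or more in at least 2 of 7 libraries (14006) were fitted on log2(RPM + 1) in limma 3.58.1 (R 4.3.3, trend, robust), which left 3 residual degrees of freedom for 4 means beside 4.05 prior ones (median). This scale understates the change of low genes. Calls needed a Benjamini-Hochberg adjusted p under 0.05 over these genes and a log2 fold change beyond 1. SE and adjusted p are from limma, with 2 libraries a side. The fit was tested on simulated data.

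Symbols came from a table of gene IDs and lack the last letter of some paralogs (*acp5* is *acp5a*), and 28988 of 32057 IDs had one. Named genes were the 12 of largest change per direction at 50 RPM or more, up to 4 called genes of smallest p per list, the genes the paper names, the cell type markers, and genes stated to be noticed afterwards. Some genes that meet this rule are not reported here. The members and lists were chosen with earlier results of these data known. Alternatives were TMM scaling (edgeR 4.0.16), quantile normalization, further pseudocounts and filters, a block on replicate number, fits of fewer libraries and the ANOVA rule of the study.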

Additional observations from a re-analysis of the deposited data

How the results depend on the processing

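Counts of higher and lower genes (106 and 513) were 180 higher after quantile normalization, 25 and 204 without a filter on low values, 32 and 329 in limma without trend and robust settings, 375 and 1167 with the 4 libraries of the pair alone, and 398 and 1184 by the one-way ANOVA rule. With 1 library left out they ranged from 0 to 365 and from 0 to 1201. TMM scaling, both other pseudocounts and both other filters moved neither count by over 1.5 times, although pseudocount 0.1 RPM gave 79 higher genes. Of 172 called genes followed singly, 157 kept their call with TMM scaling, 167 with quantile normalization, 152 with a pseudocount of 0.1 RPM, 93 without a filter, 101 without trend and robust settings and 148 by the ANOVA rule. With 1 library left out, all kept it without an EV library, 54 and 39 without GFPhigh replicate 1 and 2, and 0 and 5 without GFPlow replicate 1 and 2. Of the uncalled genes followed singly, 17 gained a call in the fit of the 4 libraries of the pair alone. No called gene changed sign in these settings. Replicates of like number were not taken as paired, since their deviations correlated by 0.172 between GFPlow and GFPhigh and by 0.070 between each of these and EV, and a replicate block gave 127 and 504 calls, with 100 of the 106 and 458 of the 513 genes among them (4 of the 172 lost their call). Signs changed in uncalled genes only. With 1 library left out the log2 fold change ranged from -0.23 to 2.0 for *xdh*, -0.87 to 2.55 for *tyrp1* (ENSDARG00000056151), -1.23 to 0.35 for *tyrp1* (ENSDARG00000029204), -0.59 to 1.21 for *zap70*, -0.12 to 0.61 for *tp63*, -0.44 to 0.81 for *npsn*, -0.11 to 0.11 for *csf1ra*, -0.74 to 0.38 for *itgb3* (ENSDARG00000056767), -0.81 to 0.25 for *dct*, -1.87 to 0.89 for *pmela* and -1.38 to 0.34 for *krt5*. Quantile normalization gave 0.10 for that *itgb3* and 0.03 for *dct*, and the ANOVA rule 0.10 for *pmela*. The cause was not tested. The planned count tests (edgeR and DESeq2 on recovered reads) were not run, because rounding to 2 decimals left 83.9% and 82.7% of low GFPlow values within 0.1 read of a whole number.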

Other observations

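Some gene groups that the comparison leaves aside also held called genes. Of 17 iron and heme genes, 1 was higher in GFPhigh and 4 were lower, beside 0.855% and 4.14% of all genes compared. The higher gene was the transferrin receptor *tfr1a*, at 4.05 and 8.71 RPM against 41.2 and 43.4 RPM (log2 fold change 2.63, SE 0.51, adjusted p = 0.037 in limma). The lower genes were heme oxygenase *hmox1*, the ferritin genes *fth1a* (3630 and 3494 RPM against 950 and 1263 RPM, -1.70) and *fthl28* (-3.06), and the metalloreductase *steap4* (-3.02). Of these, *fthl28* reached 1 RPM in GFPlow only, where a difference was close to forced. The other uptake gene *tfr1b* (1.70, adjusted p = 0.297) and the ferritin gene *fthl27* (-0.73, adjusted p = 0.211) were not called. Of 25 interferon response genes, 2 were lower (*gbp1*, -1.80, and *socs3*, ENSDARG00000026611, -1.28), beside 4.14% of all genes compared. In this list 19 of the 21 genes present in both fractions had a negative fold change, with a median of -0.78. None of 30 genes of cholesterol and fatty acid synthesis was called by limma in this fit or with the 4 libraries of the pair, and their median was 0.42, with 1 higher and 1 lower at an unadjusted p under 0.05.

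Further genes were lower in GFPhigh and highest in mCh+ cells, as noticed after their values were seen. The gelatinase *mmp2* was at 2576 RPM in mCh+ cells, 1028 and 1036 RPM in GFPlow and 179 and 101 RPM in GFPhigh (-2.93, SE 0.27, adjusted p = 0.00288). The Wnt antagonist *wif1* was at 400 RPM, 81.7 and 135 RPM, and 15.2 and 8.38 RPM (-3.11). *eml6*, a gene of a microtubule-associated protein, had the highest fold change of the 106 higher genes, with 0.49 and 0.45 RPM in GFPlow and 37.6 and 15.1 RPM in GFPhigh (4.08, SE 0.81, adjusted p = 0.0398). This gene reached 1 RPM in GFPhigh only, where a difference was close to forced. It was not called with a pseudocount of 0.1 RPM or without a filter on low values. Its fold change was 3.45 without GFPhigh replicate 1 and 4.72 without replicate 2.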
